A study of Mus musculus with 11 samples.

Results

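The neurotrophin genes Bdnf and Ntf3 and the receptor genes Ntrk2, Ntrk3 and Ngfr were taken from a count table of dissected mouse lateral habenula by their gene symbols, which gave 5 genes of 54532 in the table. All 5 had enough reads to be tested, among 19619 genes that passed the same count filter. The study used collagen antibody-induced arthritis (CAIA) in BALB/c mice aged 3 months to examine how rheumatoid arthritis and depression are related. CAIA mice received 5 monoclonal antibodies against type II collagen by intraperitoneal injection (50 mg/kg) and, 3 days later, lipopolysaccharide (LPS, 1 mg/kg), and control mice received vehicle. The groups were 3 female CAIA, 3 female control, 3 male CAIA and 2 male control libraries. Antibody and LPS were given to the same animals, so their effects cannot be told apart. The labels do not say whether each library is a separate animal. The p-values here reflect the spread among these 11 libraries, which may be technical.

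Neurotrophins are secreted growth factors that keep neurons alive during development and adjust synapses in the adult brain. Brain-derived neurotrophic factor (BDNF) binds the receptor tyrosine kinase TrkB, the product of Ntrk2, and neurotrophin-3, the product of Ntf3, binds TrkC, the product of Ntrk3. The p75 receptor, the product of Ngfr, binds all mature neurotrophins and, with sortilin, their uncleaved precursors. Ntrk2 and Ntrk3 both also give rise to truncated receptors that lack the kinase, and astrocytes make mostly the truncated TrkB. Neuronal activity induces Bdnf, and BDNF has been studied at length in depression models.

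Library totals were 25317306 to 29565006 counts. All 11 fixed lateral habenula markers were detected in each group, with a summed level of 1486 to 1752 CPM in CAIA libraries and 1533 to 1672 CPM in controls (CPM, counts scaled to library size by TMM). Markers of neighbouring tissue were present too. The 14 medial habenula markers summed to 2956 to 3676 CPM in CAIA libraries and 2700 to 3517 CPM in controls. The 12 thalamus markers summed to 3185 to 4032 CPM in CAIA libraries and 2399 to 4342 CPM in controls. None of these markers passed between CAIA and control. Sums of different lists do not give shares of tissue, and the levels below are those of the whole dissected piece. The 14 choroid plexus markers summed to 249.6 to 2128 CPM in CAIA libraries and 2718 to 5645 CPM in controls, without overlap. Of all single genes, 1.01% had every CAIA library below every control. In edgeR's quasi-likelihood test 7 of the 14 markers were lower in CAIA, where 0.596% of all genes passed in either direction. The part of this tissue in the results below was not tested. Male control replicate 1 stood apart in long transcripts. Over the 1961 tested genes whose longest annotated transcript had at least 6372 bases, the median of its log2 CPM minus the mean of the 11 libraries was -0.27, against -0.05 to 0.08 in the other 10. Values without this library stand beside the results that moved most with it.

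The first question was how much of each transcript the habenula tissue held without arthritis. Levels were compared per length, as TPM, which scales counts by gene length and library, over the union of a gene's annotated exons. In controls Ntrk2 was highest, at 143 ± 16.6 TPM (SD, n = 5), followed by Ntrk3 at 15.5 ± 3.46 TPM, Bdnf at 11.7 ± 1.27 TPM, Ntf3 at 2.05 ± 1.21 TPM and Ngfr at 1.81 ± 0.835 TPM. Ntrk2 lay at the 94.2 percentile of all genes tested, Ntrk3 at 54.8, Bdnf at 49.1, Ntf3 at 21.4 and Ngfr at 19.6. The 5 genes thus formed 3 tiers. The lowest Ntrk2 value was above the highest Ntrk3 value, and the lowest Bdnf value (10.4 TPM) was above the highest Ntf3 value (3.87 TPM). Ntrk3 and Bdnf overlapped, with Ntrk3 higher in 4 of 5 controls, and Ntf3 and Ngfr overlapped, with Ntf3 higher in 2 of 5. Without male control replicate 1 the mean of Ngfr (2.01 TPM) exceeded that of Ntf3 (1.91 TPM).

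**Figure D1:**
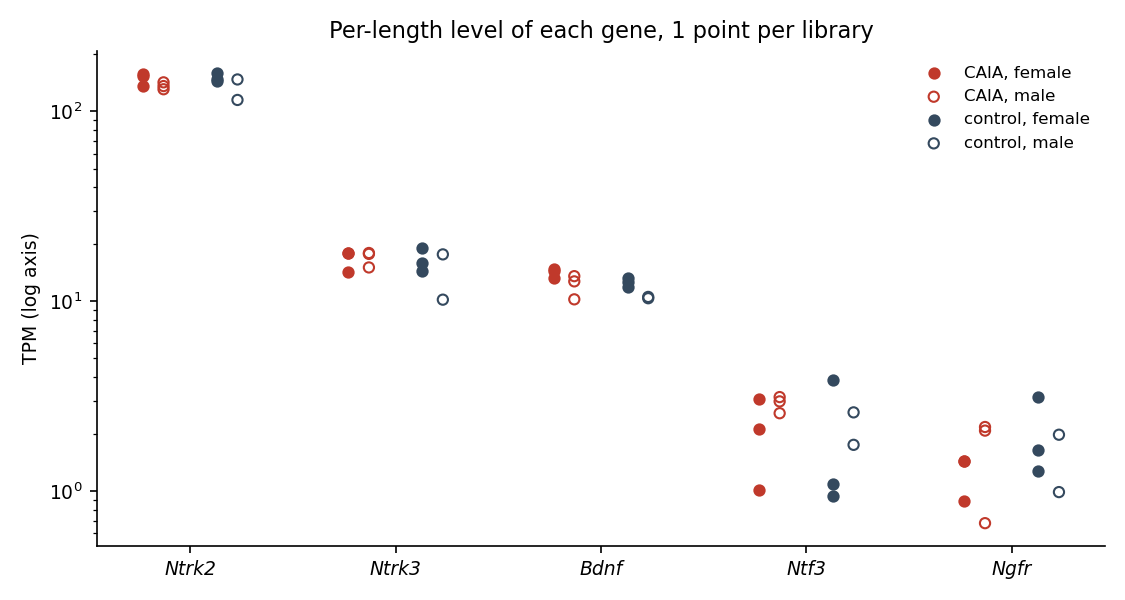
Level of each gene in TPM on a log axis, with 1 point per library; CAIA is left of control, filled points are female and open points male. Ntrk2 lies near 143 TPM, Ntrk3 and Bdnf share a middle tier, and Ntf3 and Ngfr share the lowest.

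The receptor of each ligand was the more abundant transcript. The ratio of Ntrk2 to Bdnf, both in TPM, was 10.2 to 12.8 in CAIA libraries (median 10.6) and 10.9 to 14.2 in controls (median 12.6). The ratio of Ntrk3 to Ntf3 was 5.68 to 14 in CAIA libraries (median 5.98) and 3.92 to 17 in controls (median 10.1). Both ratios overlapped between the groups. These are gene totals. The deposited counts do not separate full-length from truncated receptors, and the ratios do not describe protein. The size of the ratios also depends on the gene length used. With the longest transcript as length, controls averaged 253.3 TPM for Ntrk2 and 13.7 TPM for Bdnf, against 143 and 11.7 TPM with the exon union.

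The second question was whether CAIA changed any of the 5 genes. None passed an adjusted p of 0.05 over all genes in edgeR's quasi-likelihood test, in which 0.596% of all genes passed, and none passed in DESeq2 or limma-voom. At an unadjusted p under 0.05 there was 1 of the 5, Bdnf, against 6.36% of all genes. The median log2 fold change of the 5 genes was 0.19 (CAIA over control, both sexes weighted equally), with 4 of 5 positive, against a median of 0.000175 over all genes, of which 50% were positive. That median was the value of Ntrk3, which fell to 0.03 without male control replicate 1. In the same fit Ntrk2 was at -0.02 and Ngfr at -0.42, while Bdnf and Ntf3 stayed positive. No gene of the 5 had every CAIA library above every control (0.168% of all genes did) or below every control (1.01% did). Within females these shares of all genes were 5.08% above and 6.39% below, within males 9.18% above and 8.51% below, and the 5 genes overlapped in each sex. In bulk tissue, a change in the number of cells of a type and a change in RNA per cell cannot be told apart.

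**Figure D2:**
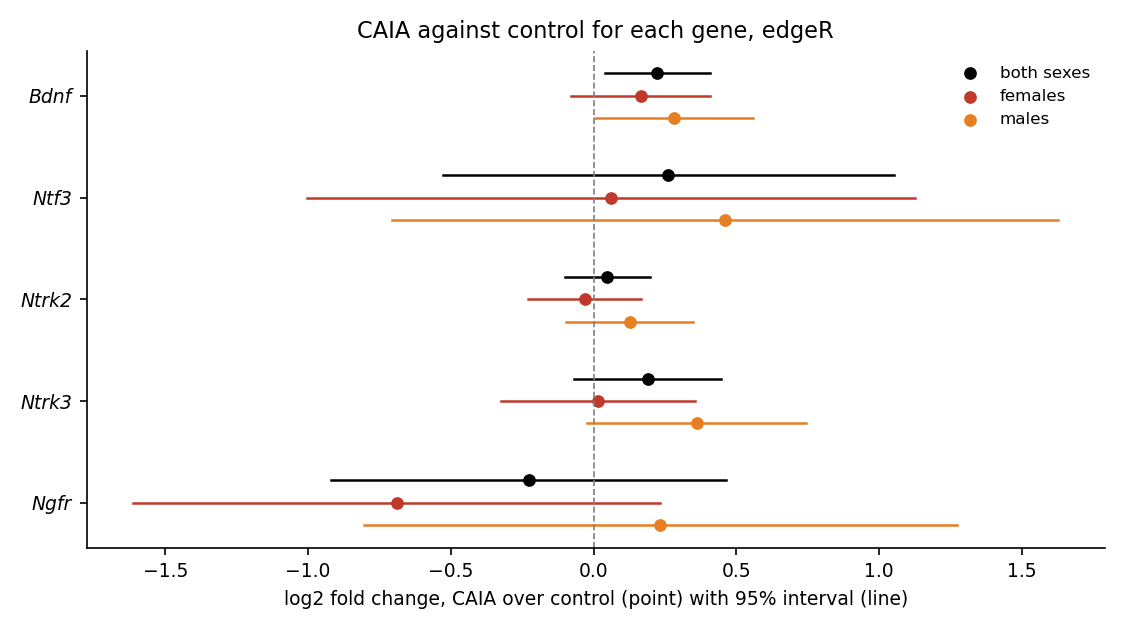
Log2 fold change of CAIA over control for each gene, with the 95% interval of edgeR's quasi-likelihood fit, fitted for the sexes combined and for each sex. Bdnf over both sexes is at 0.22 with an interval of 0.04 to 0.41, and the intervals of Ntf3 and Ngfr are the widest.

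Bdnf encodes the ligand of TrkB and lies on chromosome 2 (109674700 to 109727007, plus strand, GRCm38), with 11 annotated transcripts. It was at 25.1, 24.6 and 22.9 CPM in female CAIA libraries, against 24.2, 21.0 and 19.7 CPM in female controls. It was at 24.2, 18.6 and 22.6 CPM in male CAIA libraries, against 18.8 and 17.1 CPM in male controls. In each sex, 2 of 3 CAIA libraries exceeded every control of that sex, and the groups overlapped in both sexes. The log2 fold change was 0.22 ± 0.09 (SE, 95% interval 0.04 to 0.41, a 1.17-fold difference), with an edgeR p of 0.0207 and an adjusted p of 0.614. It was 0.17 ± 0.11 in females (adjusted p = 1) and 0.28 ± 0.13 in males (adjusted p = 0.878), and the difference between the sexes, -0.12 ± 0.17, did not pass (edgeR adjusted p = 0.978). Over all 20 alternatives it stayed between 0.18 and 0.28, with edgeR, DESeq2 or limma-voom adjusted p of 0.337 to 0.997. Bdnf shares 14.4% of its exonic bases with the antisense gene Gm45346, which had 0 to 5 counts per library, and whether counting used strand is not given in the sources used here.

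Bdnf is also expressed in the hippocampus and cortex, which lie above the habenula. The 14 hippocampus and cortex markers summed to 893.8 to 997.1 CPM in female CAIA libraries, against 863.7 to 1132 CPM in female controls. In males they summed to 867.4 to 1203 CPM in CAIA libraries, against 827.1 and 884.6 CPM in controls. The most abundant marker, Slc17a7, alone was at 421.7 to 609.2 CPM in CAIA libraries and 436.3 to 640.6 CPM in controls. The mean log2 CPM of the 14 markers, which weights them equally, was 4.06 to 4.52 in male CAIA libraries, against 2.87 and 3.08 in male controls, and the groups did not overlap. With 3 against 2 libraries, 9.18% of all single genes also had every male CAIA library above every male control. The mean of the markers was 3.62 to 4.26 in female CAIA libraries, against 3.13 to 4.48 in female controls. None of the 14 passed between CAIA and control. Female control replicate 1 had the highest sum and the highest Bdnf of the controls, and female CAIA replicate 1 the highest of both among female CAIA libraries, while male CAIA replicate 2 had the highest sum and the lowest Bdnf of the 6 CAIA libraries. The part of these markers in the Bdnf values was not tested.

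Ntf3 encodes neurotrophin-3 and lies on chromosome 6 (126101412 to 126166910, minus strand). It was near the lower end of what these libraries could measure, with 11 to 52 counts per library. It was at 1.46, 0.977 and 0.481 CPM in female CAIA libraries, against 0.545, 0.432 and 1.77 CPM in female controls. It was at 1.54, 1.49 and 1.26 CPM in male CAIA libraries, against 1.28 and 0.796 CPM in male controls. The female controls held both the lowest and the highest value of all 11 libraries, 11 counts (95% Poisson interval 5.49 to 19.7) and 52 counts (38.8 to 68.2), so these libraries differed beyond counting error. The log2 fold change was 0.26 ± 0.37 (interval -0.53 to 1.05, edgeR adjusted p = 0.958). Without female control replicate 3, the highest library, it was 0.72 (edgeR adjusted p = 0.523). In females alone it was 0.06 ± 0.50, and 0.98 without that library, and in males it was 0.46 ± 0.54 (edgeR adjusted p = 1 and 0.948 with all libraries). It was 0.44 over both sexes and 0.83 in males without male control replicate 1.

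Ntrk2 encodes TrkB and lies on chromosome 13 (58806569 to 59133970, plus strand), with 10 annotated transcripts. It was the most precisely measured of the 5, with 16902 to 23329 counts per library. It was at 820.9, 813.8 and 721.8 CPM in female CAIA libraries, against 818.2, 822.4 and 766.7 CPM in female controls. It was at 787.1, 739.1 and 747.7 CPM in male CAIA libraries, against 636.1 and 752.1 CPM in male controls. The groups overlapped in both sexes. The log2 fold change was 0.05 ± 0.07 (interval -0.10 to 0.20, edgeR adjusted p = 0.959), an interval of 0.933-fold to 1.15-fold. It was -0.03 ± 0.09 in females and 0.13 ± 0.10 in males, and over both sexes it was -0.02 without male control replicate 1.

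Ntrk3 encodes TrkC and lies on chromosome 7 (78175959 to 78738012, minus strand), with 20 annotated transcripts, the longest of 19703 bases. It was at 151.6, 145 and 118.9 CPM in female CAIA libraries, against 126.7, 129.2 and 154.8 CPM in female controls. It was at 153.8, 158.7 and 129.7 CPM in male CAIA libraries, against 88.3 and 141 CPM in male controls. The groups overlapped in both sexes, and male control replicate 1 was the lowest of all 11 libraries. The log2 fold change was 0.19 ± 0.12 (interval -0.07 to 0.44, edgeR adjusted p = 0.881), with 0.02 ± 0.16 in females and 0.36 ± 0.18 in males. Without male control replicate 1 it was 0.03 over both sexes and 0.06 in males. Without male control replicate 3, which leaves replicate 1 as the only male control, it was 0.39 over both sexes (edgeR adjusted p = 0.0833) and 0.75 in males (adjusted p = 0.0537).

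Ntrk2 and Ntrk3 both belong to the class of longest transcripts in which male control replicate 1 was low, and Bdnf, Ntf3 and Ngfr do not. Relative to the mean of the 11 libraries, that library was at -0.61 for Ntrk3 and -0.26 for Ntrk2 on the log2 CPM scale, beside the median of -0.27 for the class. Its value for Bdnf was -0.19, against -0.33 in male control replicate 3, where the class was at 0.05. The part of transcript length in the receptor values was not tested.

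**Figure D3:**
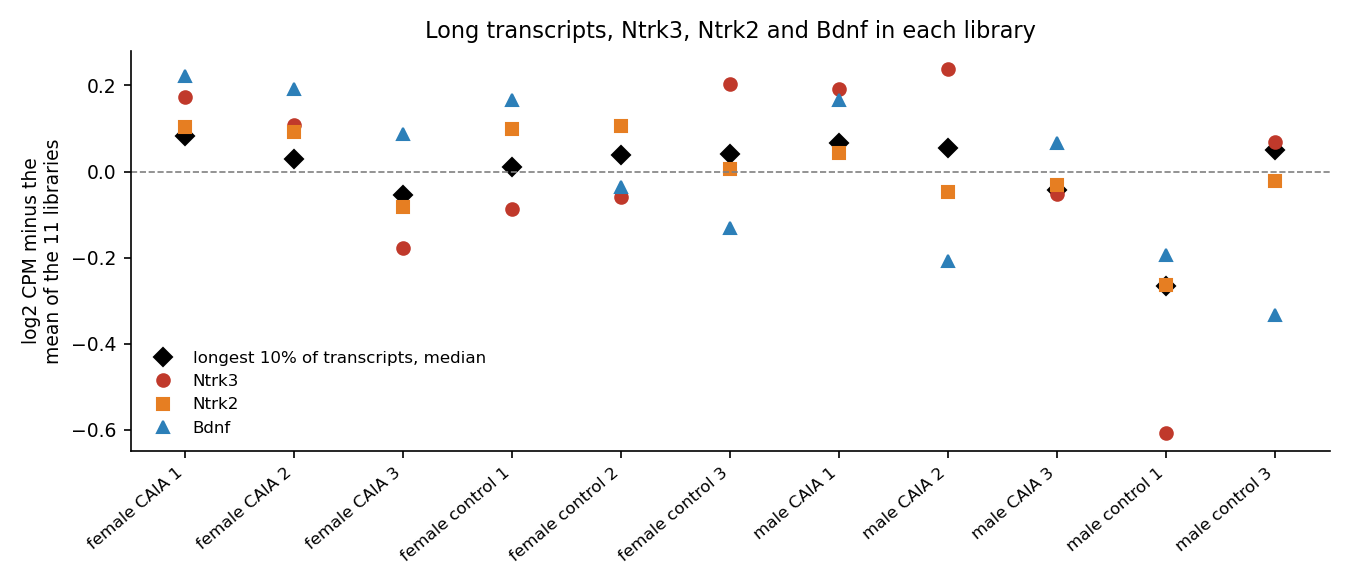
Log2 CPM minus the mean of the 11 libraries for Ntrk3, Ntrk2, Bdnf and the median of the longest 10% of transcripts, in each library. Male control replicate 1 is low for the long transcripts (-0.27), Ntrk2 (-0.26) and Ntrk3 (-0.61), while Bdnf is lowest in male control replicate 3 (-0.33).

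Ngfr encodes the p75 receptor and lies on chromosome 11 (95568818 to 95587735, minus strand), with 1 annotated transcript. It had 17 to 85 counts per library. It was at 0.854, 1.33 and 1.37 CPM in female CAIA libraries, against 1.28, 1.53 and 2.9 CPM in female controls. It was at 0.671, 2.2 and 2.05 CPM in male CAIA libraries, against 0.979 and 1.81 CPM in male controls. The groups overlapped in both sexes, and the male CAIA libraries lay on both sides of their controls, with 2 above both and 1 below both. The log2 fold change was -0.23 ± 0.32 (interval -0.92 to 0.47, edgeR adjusted p = 0.958), with -0.69 ± 0.43 in females and 0.23 ± 0.48 in males. The difference between the sexes was -0.92 ± 0.65 (edgeR adjusted p = 0.978). Without female control replicate 3, which held the highest value (85 counts, 95% Poisson interval 67.9 to 105), the female value was -0.25. Over both sexes the value was -0.01 without that library and 0.04 without male control replicate 3. It was -0.42, and -0.14 in males, without male control replicate 1.

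Ngfr is expressed by Schwann cells and by fibroblasts of the meninges. The 12 meningeal fibroblast markers summed to 77.7 to 92.2 CPM in female CAIA libraries, against 129.3 to 159.4 CPM in female controls. In males they summed to 77.5 to 125.2 CPM in CAIA libraries, against 110.3 and 126.2 CPM in controls. Of the 12 markers, 3 were lower in CAIA in edgeR's test, where 0.596% of all genes passed in either direction. The libraries with the highest sum (female control replicate 3) and the lowest (male CAIA replicate 1) were also those with the highest and lowest Ngfr. Within male CAIA libraries, sums of 77.5, 95.3 and 125.2 CPM went with Ngfr at 0.671, 2.05 and 2.2 CPM. Within male controls, sums of 110.3 and 126.2 CPM went with Ngfr at 0.979 and 1.81 CPM. Neither female group kept this order throughout, and some libraries departed from it across groups. Female CAIA replicate 3 had nearly the same low sum as male CAIA replicate 1 (77.7 CPM), with Ngfr at 1.37 CPM. Male control replicate 1 had a higher sum (110.3 CPM) and a lower Ngfr (0.979 CPM). The 9 Schwann cell markers summed to 240.3 to 283.3 CPM in CAIA libraries and 243.2 to 330.4 CPM in controls. The highest sum was in female control replicate 3, which also had the highest Ngfr. The most abundant marker, Mal, alone was at 163.7 to 201.8 CPM in CAIA libraries and 163.5 to 234.6 CPM in controls. Of the 9 markers, 6 could be tested and none passed. Pmp2 was at 0 counts in every library, and Foxd3 in every CAIA library and every male control. The part of the fibroblast and Schwann cell markers in the Ngfr values was not tested.

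**Figure D4:**
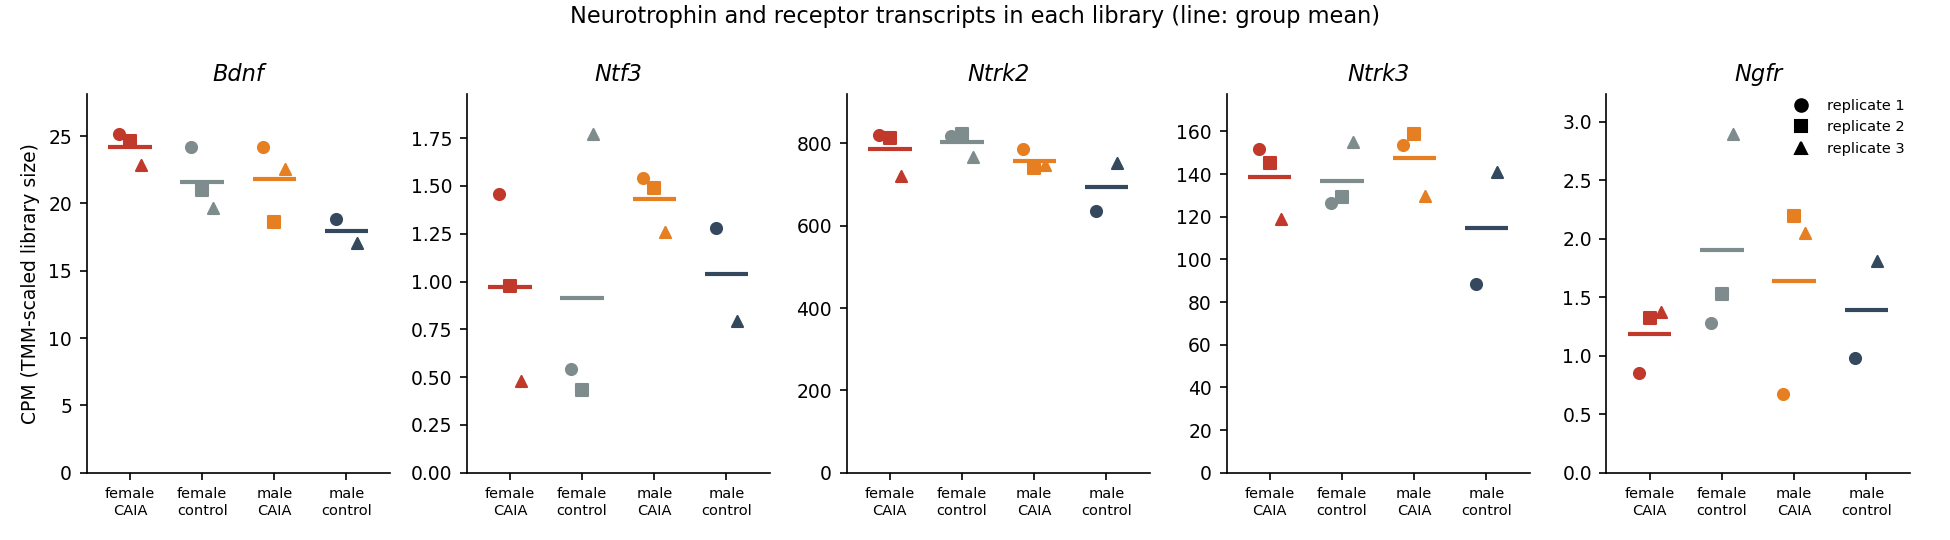
CPM of each gene in each library, in panels with separate axes that start at 0; marks give the replicate and lines the group mean. CAIA and control overlap within each sex for all 5 genes, and the spread is widest for Ntf3 and Ngfr.

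The effect of CAIA was also compared between the sexes. In females 3 of the 5 values were positive (49.5% of all genes were) and in males 5 were (49.8%). Without male control replicate 1, the male values were -0.14 for Ngfr, 0.004 for Ntrk2 and 0.06 for Ntrk3, while Bdnf and Ntf3 stayed positive. In females none of the 5 genes passed (0.26% of all genes did in edgeR) and none had an unadjusted p under 0.05 (5.22% of all genes did). In males none passed, as for all genes (0% in edgeR and limma-voom, while DESeq2 called 71 genes), and Bdnf alone had an unadjusted p under 0.05 (0.0464, against 5.63% of all genes). All 5 female minus male differences in effect were negative, from -0.12 for Bdnf to -0.92 for Ngfr on the log2 scale, while 48% of all genes had a positive one. None of these differences passed in edgeR (0% of all genes did), DESeq2 or limma-voom, and none of the 5 had an unadjusted p under 0.05 (4.11% of all genes did). For Ntf3 the difference was -0.40 ± 0.74, and 0.52 without female control replicate 3, with the opposite sign. Without male control replicate 1 the differences were -0.05 for Ntrk3, -0.04 for Ntrk2, -0.19 for Bdnf, -0.78 for Ntf3 and -0.55 for Ngfr.

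Between females and males over both treatments, none of the 5 genes passed (0.0459% of all genes did in edgeR), and none passed in DESeq2 or limma-voom. Bdnf averaged 22.9 ± 2.18 CPM in females (SD, n = 6) and 20.3 ± 2.98 CPM in males (n = 5). Its log2 difference of female over male was 0.21 ± 0.09 (edgeR model across all genes, adjusted p = 0.731). It was the only one of the 5 with an unadjusted p under 0.05 in edgeR, against 6.76% of all genes. Ntrk2 averaged 794 ± 41.1 CPM in females and 732.4 ± 56.9 CPM in males, a log2 difference of 0.13 ± 0.07 (edgeR adjusted p = 0.761). The log2 difference was positive for 3 of the 5 genes and 51% of all genes. Ntf3 was at -0.36 ± 0.37, Ntrk3 at 0.08 ± 0.12 and Ngfr at -0.01 ± 0.32. Without male control replicate 1 the log2 difference was 0.24 for Bdnf, 0.07 for Ntrk2, -0.17 for Ntf3, -0.07 for Ntrk3 and -0.20 for Ngfr.

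Whether the 5 genes varied together was examined across the 11 libraries. Of the 10 pairs, none had a correlation of log2 CPM that passed after adjustment over the pairs (permutation test, two-sided, 100000 resamples). With 11 libraries, a pair that does not pass may still be related. Ntrk2 and Ntrk3 had the highest Pearson r, 0.69 (permutation p = 0.0346, adjusted p = 0.305), with a Spearman rho of 0.20 (permutation p = 0.557, adjusted p = 0.853). Leaving out female control replicate 2 and male control replicate 1, the libraries farthest from the median of Ntrk2, gave an r of 0.25. Leaving out male control replicate 1 alone gave 0.10, so the relation rested on that library. Ntf3 and its receptor gene Ntrk3 had an r of 0.33 (permutation p = 0.331, adjusted p = 0.828) and a rho of 0.73 (permutation p = 0.0143, adjusted p = 0.143). Leaving out the libraries farthest from the median of Ntf3 gave 0.25, while leaving out male control replicate 1 gave 0.85 (permutation p = 0.00402, adjusted p = 0.0402). Within females r was 0.95 (6 libraries) and within males 0.10 (5 libraries). Bdnf and its receptor gene Ntrk2 had an r of 0.56 (permutation p = 0.0617, adjusted p = 0.305) and a rho of 0.55 (permutation p = 0.0875, adjusted p = 0.292), and r was 0.67 without the libraries farthest from the median of Bdnf. Bdnf and Ngfr had an r of -0.54 (permutation p = 0.0914, adjusted p = 0.305), a rho of -0.65 (permutation p = 0.0373, adjusted p = 0.186) and an r of -0.44 without those libraries. All libraries share 1 dissection plan and differ in their neighbouring tissue, and a correlation here does not separate these.

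For each gene the 3 genes with the most similar pattern were found by Pearson r of log2 CPM over the 11 libraries, among the 15555 tested genes that averaged 1 CPM or more. They are the highest of many and carry no test. For Bdnf they were Brinp1 (r = 0.95), Gm10819 (0.91) and Pcyt1b (0.88). For Ntrk2 they were Wasf3 (0.96), Ctnna3 (0.95) and Tenm3 (0.94), and for Ntrk3 Slc4a7 (0.98), Bptf (0.97) and Mga (0.97). For Ngfr they were Plscr4 (0.97), Ptbp1 (0.93) and Ifi30 (0.91), and for Ntf3 Susd1, Supv3l1 and Tmem243 (each 0.88). None of these genes was on the neurotrophin pathway list or a marker list.

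The other genes of the pathway were read from a list of 76, of which 75 could be tested and Plg could not. None passed between CAIA and control over both sexes in edgeR, DESeq2 or limma-voom, against 0.596% of all genes in edgeR, and 3 had an unadjusted p under 0.05, 4% of the list against 6.36% of all genes. The median log2 fold change was -0.01, with 36 of 75 positive, 48.0% against 50% of all genes. In females 0 passed and 3 had an unadjusted p under 0.05 (4%, against 5.22% of all genes), all 3 among the genes induced by BDNF. In males 0 passed and 2 had an unadjusted p under 0.05 (2.67%, against 5.63%). In DESeq2 and limma-voom 0 passed in either sex. With no count filter, 2 of the list passed over both sexes (Fos and Arc), 6 in females and 1 in males, where 470, 452 and 423 of all genes did.

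**Figure D5:**
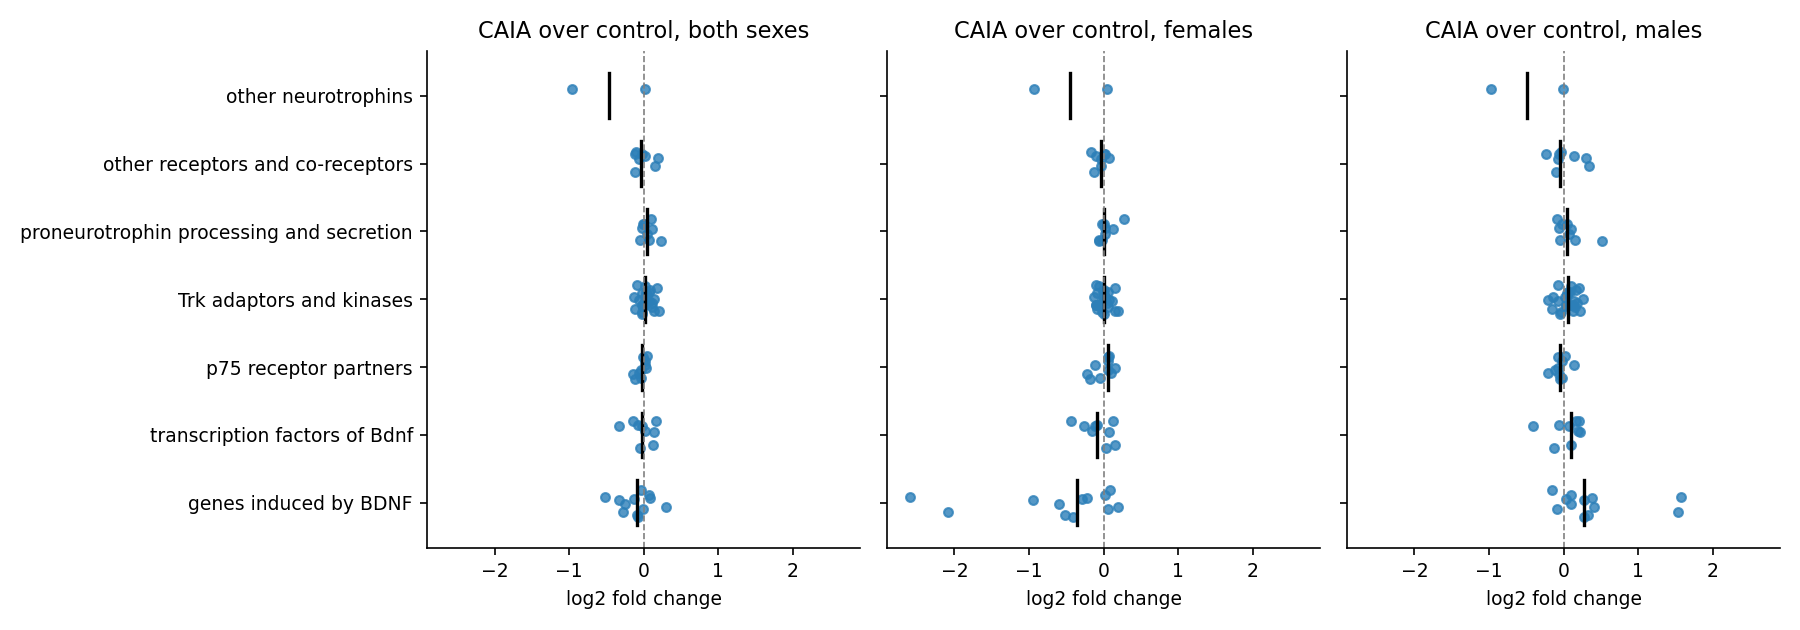
Log2 fold change of CAIA over control for the 75 tested pathway genes by role, with a panel for the sexes combined and for each sex, 1 point per gene and a line at each role's median. Most genes lie near 0. Within each sex the genes induced by BDNF spread widest, their female median being -0.35 (0.04 without female control replicate 1) and their male median 0.27.

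Among the other ligand genes, Ntf5, which encodes neurotrophin-4, another ligand of TrkB, was at 0.26 ± 0.212 CPM in CAIA libraries (SD, n = 6) and 0.486 ± 0.129 CPM in controls (n = 5), with 3 to 17 counts in CAIA libraries and 9 to 17 in controls. Its log2 fold change was -0.96 ± 0.45 and did not pass (edgeR adjusted p = 0.781). Among the 8 other receptors and co-receptors the median was -0.04. The sortilin relatives Sorcs3 and Sorcs1 were at 0.15 ± 0.08 and 0.19 ± 0.12, the p75 relative Tnfrsf19 at -0.10 ± 0.08, and Lingo1, a p75 co-receptor in myelin inhibition, at -0.12 ± 0.12. Sorcs3 was at 0.08, Sorcs1 at 0.07 and Lingo1 at -0.05 without male control replicate 1.

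Of the genes for processing and secretion of proneurotrophins, 9 were tested, with a median of 0.05. The secretogranin gene Scg2 was at 0.11 ± 0.06, the metalloprotease gene Mmp9 at 0.23 ± 0.24, the proprotein convertase gene Furin at -0.05 ± 0.06 and the neuroserpin gene Serpini1 at 0.07 ± 0.09. The 25 adaptors and kinases downstream of Trk receptors had a median of 0.02, with 15 of 25 positive. The Ras exchange factor gene Sos1 was at 0.18 ± 0.07 (edgeR adjusted p = 0.723), with 92.3 ± 5.49 CPM in CAIA libraries and 82.7 ± 10.1 CPM in controls. Kidins220, a scaffold and substrate of Trk receptors, was at 0.21 ± 0.10 and the adaptor gene Crkl at 0.14 ± 0.07. The 10 p75 partners had a median of -0.02, with the protease gene Adam17 at -0.11 ± 0.08, the kinase gene Ripk2 at -0.14 ± 0.14, the GTPase gene Rhoa at 0.05 ± 0.06 and the gamma-secretase subunit gene Psenen at -0.06 ± 0.09. Sos1 was at 0.09, Kidins220 at 0.10, Crkl at 0.06 and Psenen at 0.08 without male control replicate 1, and the median of the p75 partners was then 0.06. None of the genes named in these roles passed.

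The 9 transcription factors of Bdnf had a median of -0.03, and of 0.10 without female control replicate 1. Npas4, an activity-induced factor that binds Bdnf promoters, was at -0.34 ± 0.16 (edgeR adjusted p = 0.781), with 6.28 ± 0.638 CPM in CAIA libraries and 7.88 ± 2.02 CPM in controls. Male control replicate 3 was highest, at 10.7 CPM, and the Npas4 value was -0.05 without it and -0.54 without male control replicate 1. Creb1, which encodes CREB, was at 0.16 ± 0.08 (edgeR adjusted p = 0.781) and the calcium-response factor gene Carf at 0.13 ± 0.08. Creb1 was at 0.08 and Carf at 0.07 without male control replicate 1. The 12 genes that BDNF induces had a median of -0.08, and of 0.17 without female control replicate 1, so the direction turned on that library. Among them were Cort at -0.25 ± 0.17, the signalling inhibitor gene Spry2 at -0.13 ± 0.09, Fos at 0.30 ± 0.22 and Arc at -0.33 ± 0.39. Arc was at 88.9 CPM in female control replicate 1, against 19.3 to 31.8 CPM in CAIA libraries and 19.4 to 30.6 CPM in the other controls, and its log2 fold change was 0.11 without that library. Fos was at 0.11 without male control replicate 1 and 0.54 without male control replicate 3. Of the 12, 4 values were positive in females (median -0.35) and 10 in males (median 0.27), where 49.5% and 49.8% of all genes were. Without female control replicate 1, 7 of the 12 were positive in females (median 0.04). In the fit with the count filter, none of the 12 passed in either sex or for the difference between the sexes. With all libraries, 3 of the 12 had an unadjusted edgeR p under 0.05 in females, each lower in CAIA (25%, against 5.22% of all genes). In males 0 did (5.63% of all genes). With all libraries the edgeR adjusted p was 0.920 for Fos and 0.953 for Arc, and with no count filter 0.0439 for Fos and 0.0154 for Arc. The log2 fold changes were nearly the same without the filter (0.30 and -0.33). Their standard errors were 0.09 for each gene, against 0.22 and 0.39 with the filter. Those passes therefore came with smaller standard errors, not with larger differences.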

How the data were processed

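The authors deposited whole-number gene counts for 11 libraries in 1 table, and the submitters' processing notes name cutadapt 1.9.1, HISAT2 2.0.5, featureCounts 1.5.0-p3 and the build GRCm38. The annotation release and strand setting were not stated. Positions and lengths came from GENCODE M21 (GRCm38), which matched 54409 of 54532 identifiers and may differ from the release the authors used.

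Genes were filtered with filterByExpr by group and scaled by TMM. A single robust quasi-likelihood model with 4 group means was fitted in edgeR 4.0.16 (R 4.3.3), leaving 7 residual degrees of freedom. Benjamini-Hochberg adjustment covered all 19619 tested genes. A standard error is |log2 fold change| over the root of its F statistic. The fit was tested on simulated data. TPM used the union of exons. Libraries within a group differed beyond sampling noise. Poisson intervals cover counting error only.

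The 5 genes and all lists were chosen with earlier results of these data known. Pairwise correlations, transcript-length values and pathway medians by sex under each alternative were added after the data were seen. Genes named are the 5, the 3 most similar to each, and up to 4 per pathway role with the lowest p over both sexes. The most abundant gene of a marker list could be named as well. Pmp2, Foxd3, Plg and Gm45346 were named outside that rule. Some genes the rule selects are not reported here. Alternatives were other scaling factors, DESeq2 1.42.0, limma-voom 3.58.1, other count filters, no robust estimation, a replicate block, additive terms, fits of 1 sex, and leaving out each library.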

Additional observations from a re-analysis of the deposited data

Results flagged for a closer look

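Bdnf in the 6 CAIA libraries held 1 library far from the others. Male CAIA replicate 2 was lowest, and its gap to the next library was 0.638 of the whole range of log2 CPM. It was at 18.6 CPM, against 22.6 to 25.1 CPM in the other CAIA libraries and 17.1 to 24.2 CPM in the 5 controls. Without it the log2 fold change of Bdnf over both sexes was 0.26 (edgeR adjusted p = 0.337, and 0.337 to 0.997 over the alternatives). Of 10 sets of libraries examined this way, 1 was flagged, and chance flags about 1 in 20.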

How the results depend on the processing

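No alternative brought any of the 5 genes past the threshold in any comparison, and Bdnf kept its direction throughout. Counts of all genes past the threshold moved more. With DESeq2 they were 222 over both sexes, 171 in females, 71 in males, 2 for the difference between the sexes and 23 for females against males. With no count filter they were 470, 452, 423, 316 and 278 in that order of comparisons. The fit without the filter kept every gene with any count, and shares of that larger set are not given here. Females gave 78 without robust estimation and 108 when fitted alone, and males fitted alone gave 43. Leaving out 1 library gave 43 to 180 over both sexes, 0 to 104 in females, 0 to 142 in males and 7 to 23 for females against males. Of the 75 other pathway genes, 0 passed in each comparison, and with no count filter 2, 6, 1, 6 and 6 did in the same order, Fos (adjusted p = 0.0439) and Arc (adjusted p = 0.0154) being those over both sexes in edgeR. For Fos and Arc the standard error was 0.09 without the filter, against 0.22 and 0.39 with it, at nearly the same log2 fold change. The cause of these shifts was not tested.

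In females, same-numbered libraries did not deviate together from their group means (r of -0.09 to 0.02). In males r was -0.21 and 0.03. With 2 male controls, their deviations are mirror images, so the male values cannot decide on pairing. Centring on groups of 3 limits the female values as well. The labels name no pairs, and the numbers were not taken as pairs. With a replicate block the count was 82 in females and 31 in males, none of them among the 5 genes, and Ngfr in males was -0.13. Ngfr in females against males was 0.054 in limma-voom.

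Leaving out 1 library moved some log2 values across 0. Over both sexes Ntrk2 ranged from -0.018 to 0.12, Ngfr from -0.42 to 0.038, Serpini1 from -0.0037 to 0.14, Psenen from -0.17 to 0.079 and Arc from -0.52 to 0.11. In females Ntf3 ranged from -0.34 to 0.98, Ntrk2 from -0.068 to 0.019 and Ntrk3 from -0.045 to 0.11, and in males Ngfr from -0.14 to 0.76. The difference between the sexes ranged from -0.80 to 0.52 for Ntf3. Females against males ranged from -0.072 to 0.27 for Ntrk3 and -0.23 to 0.25 for Ngfr. Correlations ranged from -0.23 to 0.014 for Bdnf and Ntf3, -0.20 to 0.32 for Bdnf and Ntrk3, -0.25 to 0.24 for Ntf3 and Ngfr, -0.48 to 0.076 for Ntrk2 and Ngfr, and -0.0023 to 0.48 for Ntrk3 and Ngfr.

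Levels in controls depend on the length and scale used. With the longest transcript as length, Ntrk2 was at 253.3, Ntrk3 at 19.0 and Bdnf at 13.7 TPM. As RPKM, Ntrk2 was at 39.3, Ntrk3 at 4.24, Bdnf at 3.24, Ntf3 at 0.563 and Ngfr at 0.493. The order of the 5 was the same under both. Ntf3 and Ngfr are limited by depth, with at most 85 counts in any library.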
